A study of Mus musculus with 6 samples.

Results

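The mouse embryonic fibroblast (mEF) aggregate is the pool of all aligned reads that the authors assigned to fibroblasts in Hi-SCL, a method that lyses single cells in drops and labels their RNA with a barcode that primes on the poly(A) tail. Its members are all records of the deposited mEF alignments, without identical second records, and they number 456476 of the 1183107 records of both aggregates (38.6%). They come from 387359 reads whose 5′ ends lie at 25252 distinct positions. The other aggregate holds V6.5 mouse embryonic stem cells (mES), with 612194 reads at 53947 positions, and it is used here only to show where the fibroblasts differ. The mEF cells were a purchased stock (Globalstem GSC-6002) of embryos at 10.5 days p.c., and both cell types grew in Knockout DMEM with fetal bovine serum, to which LIF was added for the mES cells alone. All 6 libraries are labelled with both cell types, no genotype or treatment sets them apart, and the number of fibroblast cultures is not given in the sources used here. Since the 6 libraries were pooled into 1 aggregate per cell type, replicates cannot be formed and no test was made. Whether a barcode was assigned to mEF by its nominal cell type or by the clustering of its profile is also not given, and in the second case the assignment itself would have used the genes described here.

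Embryonic fibroblasts are mesenchymal cells that secrete and shape the extracellular matrix. They make fibrillar collagens as procollagens, which are hydroxylated and folded in the endoplasmic reticulum, cleaved outside the cell and cross-linked by lysyl oxidases. Their actin stress fibres pull on this matrix through integrins, and many of the genes of both systems respond to serum and to transforming growth factor beta. Embryonic stem cells instead express the pluripotency factors Pou5f1, Sox2 and Nanog and divide rapidly.

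The read names hold 3 sequencing runs. Runs 1 and 2 share most of their positions and are treated as library set 1, with 363392 mEF reads aligned over 35 nt. Run 3 is library set 2, with 23967 mEF reads aligned over 45 nt, or 6.19% of the aggregate. The sets are a split by sequencing run and not replicates, and which libraries or cells each run holds is not given in the sources used here. They are given apart for the markers and for other genes where stated, and all other values are over both sets. A level is given in reads per 1000000 reads of the aggregate (CPM), with an exact Poisson 95% interval that covers counting error only, as PCR copies of a molecule are not independent. A count of 0 allows a level of up to 3 counts, which is 7.74 CPM in all mEF reads and 125 CPM in the mEF reads of run 3. In mES these limits are 4.90 and 39.9 CPM. Each gene is counted on its exons and 500 nt past its 3′ end, on the sense strand, and positions are those of the files, in mm9.

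The label was first checked against 9 fibroblast genes, and all of them were present and higher in the mEF aggregate. Together they took 11721 reads at 465 positions, or 3.03% of the mEF reads, against 1756 reads at 118 positions and 0.287% of the mES reads. Each was past 4-fold toward mEF in CPM, the size used for a call throughout, while 14.4% of the 2764 genes compared were past 4-fold in this direction. These genes define the cell type, so their count describes the aggregate and supports nothing further. A higher level in a pool may come from more cells of a kind or from more RNA per cell, and these cannot be told apart.

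Col1a1 encodes the alpha 1 chain of type I collagen, the main fibrillar collagen of connective tissue. It had 3751 mEF reads in library set 1 and 135 in library set 2, against 153 and 0 in mES. All 3886 mEF reads, at 135 positions (chromosome 11, 94812463 to 94814320, plus strand), gave 10032 CPM (9719 to 10353), against 249.9 CPM (212 to 293) in mES. The ratio was 40.1-fold (34.1 to 47.5), and mEF was the higher aggregate in both library sets. Col1a2, which encodes the alpha 2 chain of the same collagen, had 1188 and 36 mEF reads in the 2 sets against 77 and 7 in mES. This was 3160 CPM (2985 to 3342) in mEF and 137 CPM in mES, a ratio of 23.0-fold (18.5 to 29.1). Col3a1 encodes type III collagen, which forms fibrils with type I. It had 286 and 5 mEF reads at 16 positions, while its 55 mES reads all lay at 1 position, and the ratio was 8.36-fold (6.25 to 11.4).

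Sparc, a matrix glycoprotein that binds collagen, had 1143 and 26 mEF reads in the 2 sets against 245 and 6 in mES, with a ratio of 7.36-fold (6.42 to 8.47). Vim, the intermediate filament protein of mesenchymal cells, had 957 and 22 mEF reads against 302 and 0 in mES, with a ratio of 5.12-fold (4.50 to 5.85). In each set the mEF level of both genes exceeded the mES level. Acta2, the smooth muscle actin of contractile fibroblasts, was the marker with the second highest number of positions. It had 2812 and 21 mEF reads at 89 positions (chromosome 19, 34315620 to 34329824, minus strand), and 693 and 14 mES reads at 36 positions. Its level was 7314 CPM (7047 to 7588) in mEF and 1155 CPM (1071 to 1243) in mES, a ratio of 6.33-fold (5.83 to 6.89). Tagln, an actin-binding protein of contractile cells, had 561 and 22 mEF reads against 186 and 3 in mES and the smallest ratio of the 9, 4.88-fold (4.13 to 5.78).

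Mgp and Ptn are secreted proteins, an inhibitor of calcification and a heparin-binding growth factor. Mgp had 392 mEF reads at 16 positions, all in library set 1, and 15 mES reads, a ratio of 41.3-fold (24.7 to 74.5). Ptn had 352 and 12 mEF reads at 19 positions and no mES read in either set. Its 939.7 CPM (846 to 1041) were 192-fold higher in mEF with mES taken at 3 counts, and the interval of the ratio began at 155. Of the 9 markers, 8 had an mEF read in run 3, and 5 had no mES read there. Mgp was without a read of either cell type in run 3, where the depth limit is 125 CPM, while its mEF level in library set 1 was 1079 CPM. The reason for its absence from run 3 was not tested.

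**Figure D1:**
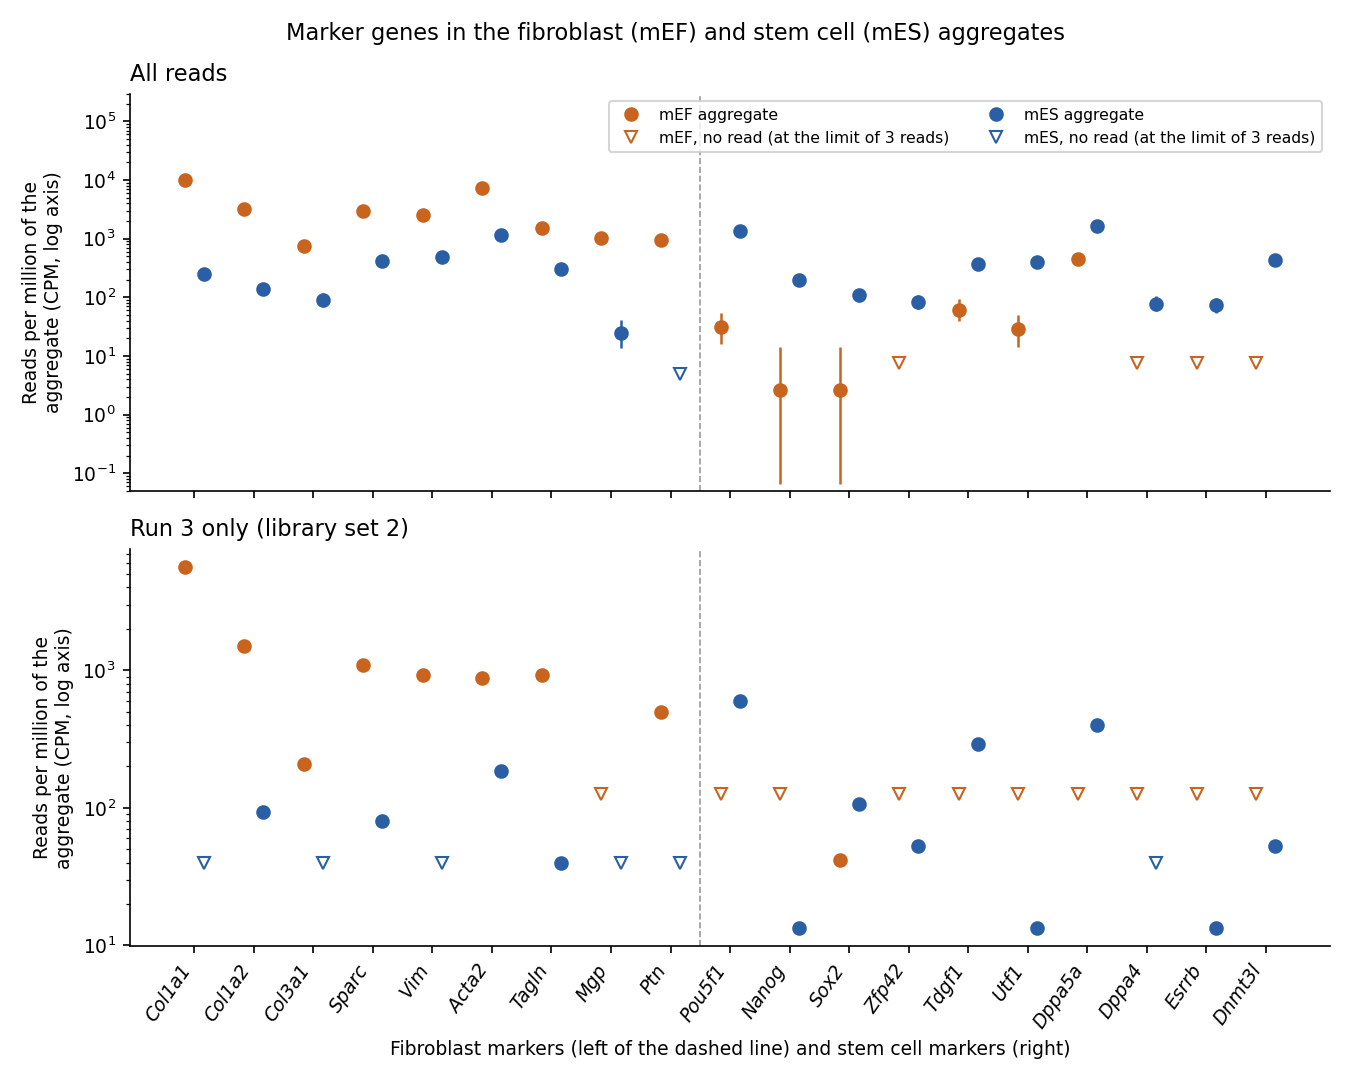
Levels of the 9 fibroblast markers and 10 stem cell markers in CPM on log axes, for all reads (top) and run 3 alone (bottom), with orange for mEF and blue for mES; bars in the top panel are exact Poisson 95% intervals of counting error, and open triangles mark an aggregate without a read at the limit of 3 reads. Every fibroblast marker lies higher in mEF in the top panel, and Mgp had no read of either cell type in run 3.

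The barcode primes on the poly(A) tail, so the place of the reads along a transcript can be set beside the end of the annotated transcript. The last 30 bases of 5 marker transcripts (GENCODE M21, GRCm38) are shown because their reads lay at very different distances from these ends, with the polyadenylation hexamer AATAAA in capitals where it occurs.
Col1a1: gctggAATAAAgcatgtggaaatgacccaa
Sparc: caaAATAAAaagtaacaacttagaaacggc
Vim: tgttactgcttcAATAAAtcttcaaaaata
Col3a1: agtcatatAATAAAatatcataatgaaaca
Acta2: catggatatgcatgcgtgacttttaacttg
Only the transcript strand was searched, for AATAAA and its variant ATTAAA, which cannot start at the same base but can share their end bases. AATAAA was in the last 30 bases of 43.9% of the 45117 protein-coding transcripts of the annotation and ATTAAA in 11.9%. Of the 9 markers, Col1a1, Col3a1, Sparc, Vim, Mgp and Ptn held AATAAA, Tagln held ATTAAA, and Col1a2 and Acta2 held neither. The reads of Sparc and Vim lay within 500 nt of an annotated end in 96.0% and 98.0% of cases, at a median of 159 and 212 nt. Col1a1 reads lay at a median of 335 nt, with 60.1% within 500 nt, and those of Col3a1 at 802 nt, with 19.6%. Acta2 reads lay at a median of 580 nt with only 4.66% within 500 nt, and its position with the most reads, chromosome 19, 34316136, lay 555 nt before the annotated end. The hexamer was thus present both in genes with reads close to the end and in Col3a1, whose reads lay far from it.

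Markers of stem cells were rare in the mEF aggregate. The 10 genes had 227 mEF reads at 15 positions, of which 1 was from run 3, against 2920 mES reads. Zfp42, Dppa4, Esrrb and Dnmt3l had no mEF read, Nanog and Sox2 had 1 each, and Pou5f1, the factor that defines the pluripotent state, had 12 reads at 2 positions against 844 in mES. The largest number, 178 reads at 8 positions, was at Dppa5a, where 48.9% of the mEF reads had the highest mapping score of the aligner, which is given to reads with a single placement. Reads placed at several genes count at each. Dppa5a was also the only 1 of the 10 whose ratio was not past 4-fold toward mES, at a log2 ratio of -1.84. Dppa4 lay at 3 positions over both aggregates, fewer than the 5 needed for a call. The part of stray stem cell RNA in the levels of the mEF aggregate, and of stray fibroblast RNA in those of mES, was not tested.

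Markers of other cell types were scarce. Over 8 lists of macrophage, endothelial, epithelial, muscle, neural, erythroid, cartilage and adipocyte genes, 13 of 111 genes had an mEF read, with 318 reads in all. No endothelial, erythroid or adipocyte marker had a read. The macrophage list was represented by 18 reads of C1qa at 1 position and the muscle list by 42 reads of Actc1 at 1 position. Dcx, a microtubule-associated protein of young neurons, was the only 1 of these genes with 5 or more positions, with 78 mEF reads at 6 positions against 18 in mES. Among the cartilage genes, Col2a1 had 38 reads and Col11a1, which encodes a minor fibrillar collagen, had 47, each at 2 positions.

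In all, 6015 genes had at least 1 mEF read, of which 84.3% were protein coding, and 813 had reads at 5 or more positions. A gene with a single position was the most common case, with 3125 genes or 52.0% of those detected, and such a gene had a median of 10 reads and up to 137. In the 813 genes, a position carried a median of 18.4 reads, and 80% of the genes lay between 8.67 and 28.5. The number of reads of a gene is therefore mostly the number of positions multiplied by copies, and both are given. The 100 genes with the most reads took 32.0% of the mEF reads.

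The genes with the most positions were of 4 kinds. The actin cytoskeleton gave Actb with 10211 reads at 234 positions, Actg1 with 2256 at 86, Acta2 and Tmsb4x, a peptide that binds actin monomers, with 2221 at 71. Of the Actb reads, 68.0% had the highest mapping score. The matrix gave Col1a1 and Thbs1, which encodes thrombospondin 1, a secreted glycoprotein that activates latent transforming growth factor beta. Thbs1 had 6137 reads at 161 positions, 15843 CPM against 2522 in mES (log2 ratio 2.65). S100a6, a calcium-binding protein, stood beside these with 4137 reads at 83 positions.

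Translation genes were Eef1a1, the elongation factor that brings aminoacyl-tRNA to the ribosome, with 3221 reads at 106 positions, and Rpl41 with 2462 at 74. Ribosomal and mitochondrial RNA made up the rest. Gm42418, which overlaps the 45S ribosomal RNA precursor, had 8824 reads at 339 positions, and mt-Rnr2 and mt-Rnr1, the mitochondrial ribosomal RNAs, had 1978 at 208 and 812 at 125. These RNAs were concentrated in run 3, where Gm42418 took 28.8% of the mEF reads, against 0.531% in library set 1. In mES the same shares were 34.5% and 1.42%. Gm29216, with 2591 reads, and Gm28437, with 2229, are nuclear copies of mitochondrial sequence, and 0% and 1.97% of their reads had the highest score, as did 5.57% of the 2785 reads of mt-Co1, so these reads cannot be told apart between the copies.

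**Figure D2:**
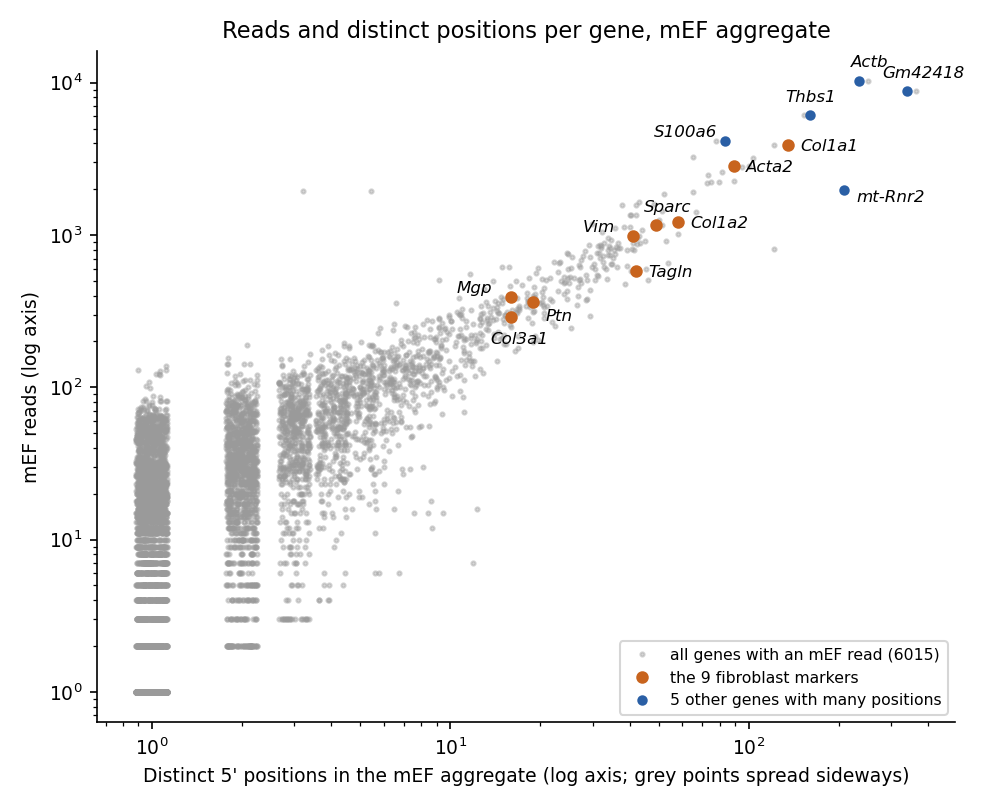
Reads against distinct 5′ positions for the 6015 genes with an mEF read, both on log axes, with grey points spread sideways, the 9 markers in orange and 5 other genes with many positions in blue. The markers run from Col3a1 and Mgp at 16 positions to Col1a1 at 135, along the main band of genes, while mt-Rnr2 lies below it with 1978 reads at 208 positions.

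The comparison with mES asked which genes set the fibroblasts apart. It used the 2764 genes with 5 or more positions over both aggregates, and an aggregate without a read was taken at 3 counts. Past 4-fold were 399 genes toward mEF (14.4%) and 724 toward mES (26.2%), and the median log2 ratio of mEF to mES over all genes was -0.31. The split between directions depended on what was counted: 35.5% of the calls were toward mEF in reads, but 75.2% in distinct positions, with 279 genes toward mEF and 92 toward mES. In positions an empty aggregate was taken at 3 positions, of 25252 in mEF and 53947 in mES. A gene without an mEF position therefore needed more positions to be called than a gene without an mES position. Dnmt3l, with 12 mES positions and none in mEF, had a log2 ratio of -0.90 in positions. Ptn, with 19 mEF positions and none in mES, had 3.76. The part of this limit in the split was not tested. Of the 329 genes called toward mEF that also had a ratio in positions, 213 were past 4-fold by positions as well and 8 had the opposite sign.

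Genes of the fibroblast programme were mostly on the mEF side. In 6 lists that cover the matrix, collagen processing, secreted factors, the contractile cytoskeleton, filaments and surface proteins, and mesenchymal transcription factors, 148 of 187 genes had an mEF read and 108 could be compared. Of these, 69 (63.9%) were past 4-fold toward mEF against 14.4% of all genes, 2 were past it toward mES, and the median log2 ratio was 2.39. The lists were chosen with results of these data known, and the count describes them. They took 15.6% of the mEF reads and 4.66% of the mES reads. Of the 69 genes, 5 had no mES read, 9 had mES reads at a single position and 55 had them at 2 or more.

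Among the 6 lists, the collagens and other matrix proteins had the largest median ratio. Of 22 matrix genes compared, 19 were past 4-fold toward mEF and none toward mES, with a median log2 ratio of 3.00. Among the basement membrane and network collagens, Col4a2 had 171 mEF reads against 19 in mES (log2 3.83) and Col6a1 160 against 9 (log2 4.81). Of the other type VI chains listed, Col6a3 had 104 against 12 (log2 3.78) and Col6a2 had 21 against 34 (log2 -0.03). Col6a2 lay at 3 positions over both aggregates, too few to be compared. Col12a1, a collagen on the surface of type I fibrils, had 398 mEF reads at 17 positions and 2 mES reads. Its ratio of 315-fold had an interval of 86.5 to 2606, because of the small mES count. Col12a1 was higher in mEF in both sets, with 14 reads against 1 in run 3.

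Several glycoproteins and proteoglycans had many positions. Fn1, fibronectin, to which cells attach through integrins, had 1019 mEF reads at 53 positions against 257 in mES (6.27-fold, 5.46 to 7.21). Bgn, the proteoglycan biglycan, had 881 mEF reads against 100 (13.9-fold, 11.3 to 17.3), and in run 3 it had 33 against 1. Fbn1, the main protein of microfibrils, had 129 against 8 (log2 4.67), and Nid1, which links laminin to collagen IV, had 265 against 20 (log2 4.39). Postn, a matrix protein of growing connective tissue, had 141 against 26 (log2 3.10).

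The 3 matrix genes within 4-fold were Tnc, Col5a1 and Pcolce, at log2 ratios of 1.36, 1.33 and 0.81. Pcolce, which enhances the cleavage of procollagen, had 1 mEF and 14 mES reads in run 3, so it was higher in mES there. Of the 35 genes of the list, 26 had an mEF read and 9 had none, and 13 of the 35 were at too few positions to be compared. Among these 13, the proteoglycan Vcan had 1 mEF read against 16 in mES, and the glycoproteins Fbln1, Mfap4 and Lamc1 had none against 24, 19 and 10, each at 1 or 2 mES positions. Dcn, Lum, Eln, Mfap5, Tgfbi and Lama4 had no read in either aggregate.

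Collagen processing followed the collagens in part, with 7 of 11 genes past 4-fold toward mEF and 1 toward mES (median log2 2.73). Serpinh1, the chaperone that binds procollagen in the endoplasmic reticulum, had 1052 and 31 mEF reads in the 2 sets against 248 and 0 in mES (6.90-fold, 6.01 to 7.96). Lox, the enzyme that cross-links collagen and elastin, had 397 and 41 against 100 and 4 (6.66-fold, 5.36 to 8.32). Both genes were higher in mEF in each set. Plod3, a lysyl hydroxylase, and Fkbp10, a collagen chaperone, had 64 and 60 mEF reads at 5 positions each and none in mES. With mES taken at 3 counts, they were 33.7-fold and 31.6-fold higher in mEF.

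The lysyl oxidase relatives went in different directions. Loxl3 had 209 mEF reads at 10 positions against 2 in mES, a ratio of 165-fold (45.2 to 1373), and Loxl1 had 69 against 19 (log2 2.52). Loxl2 was past 4-fold toward mES, with 12 mEF reads at 8 positions and 97 mES reads at 20 (log2 -2.35). Only 25.0% of its mEF reads had the highest mapping score, and by positions its log2 ratio was -0.23. P4hb and Ppib, which act on many secreted proteins, were within 4-fold at log2 ratios of 1.84 and 1.40. P3h3, of the collagen prolyl 3-hydroxylase family, was at 0.59, with 103 mEF reads against 108 in mES, and none of the 108 had the highest score.

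Secreted factors were higher in mEF in 14 of 17 genes, 11 of them past 4-fold, with a median log2 ratio of 2.39. Cxcl12, a chemokine of stromal cells, had 519 mEF reads at 18 positions against 43 in mES (19.1-fold, 14.0 to 26.7), all in library set 1. Timp2, an inhibitor of matrix metalloproteinases, had 619 against 79 (12.4-fold, 9.79 to 15.9), and Tgfb2, a ligand of the transforming growth factor beta family, had 250 against 29 (13.6-fold, 9.25 to 20.8). Ccn2 and Ccn1, matricellular proteins induced by serum and tension, had 601 against 207 (log2 2.20) and 203 against 56 (log2 2.52).

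The 3 genes of this list on the mES side stayed within 4-fold. Mdk, a relative of Ptn, had 29 mEF and 93 mES reads (log2 -1.02), Timp1 had 37 and 148 (log2 -1.34), and Igfbp2 had 10 and 59 (log2 -1.90). Ptn and Mdk encode the 2 members of the same growth factor family and thus lay on opposite sides. In run 3, Mdk had 4 mEF reads and no mES read, and Timp1 had 5 and 2.

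The actin and contractile list held genes that both cell types used and genes weighted to fibroblasts. Of 31 genes, 15 were past 4-fold toward mEF, none toward mES, and 16 were between, with a median log2 ratio of 1.91. Past 4-fold were the tropomyosins Tpm1 (791 mEF reads against 236), Tpm2 (523 against 82) and Tpm4 (266 against 25), at log2 ratios of 2.41, 3.33 and 4.07. Tpm3 had 117 against 278 (log2 -0.59), so the 4 tropomyosins did not move together. The calponins Cnn1, Cnn2 and Cnn3, which bind actin filaments, had log2 ratios of 3.60, 3.78 and 2.18, and Actn1, which cross-links filaments at focal adhesions, had 2.46.

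Actin isoforms differed in the same graded way. Actg2 had 58 mEF reads at 6 positions and 1 mES read, a ratio of 91.7-fold with an interval of 15.8 to 3682, and Acta2 stood at 6.33-fold. The cytoplasmic isoforms Actg1 and Actb were at 3.09-fold (2.88 to 3.32) and 1.54-fold (1.49 to 1.58). Myh9, the heavy chain of nonmuscle myosin IIA, was at 3.77-fold (3.41 to 4.17), just inside the limit. Pfn1 and Cfl1, which turn over actin filaments in all cells, had log2 ratios of -0.18 and -0.20.

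Many contractile genes are known targets of serum response factor, which binds the CArG box. The promoters of the list (RefSeq, 250 bases before to 50 after the start) were therefore searched on both strands for the CArG box in its exact form, a motif that reads alike on both strands. It was found in 5 of 30 promoters given for this list, 16.7%, against 1.81% of the promoters of 27025 genes, and in 0 of 23 matrix promoters. The 5 genes were Cnn2, Myl9, Vcl, Actg1 and Myl6, with log2 ratios of mEF to mES of 3.78, 2.35, 2.01, 1.63 and 0.45, so genes with the box lay on both sides of 4-fold. Cnn2 (chr10:79988350-79988649, plus strand) and Myl9 (chr2:156775214-156775513, plus strand) are shown as the 2 of the 5 with the largest ratios, in GRCm38.p6, the build of the promoter table and not that of the reads, with the box in capitals.
Cnn2: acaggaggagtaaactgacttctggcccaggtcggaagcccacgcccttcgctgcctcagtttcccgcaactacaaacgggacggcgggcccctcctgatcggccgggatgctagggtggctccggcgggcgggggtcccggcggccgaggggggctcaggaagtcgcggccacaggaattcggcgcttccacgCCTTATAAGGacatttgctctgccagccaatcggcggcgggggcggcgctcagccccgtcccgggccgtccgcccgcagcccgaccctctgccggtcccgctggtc
Myl9: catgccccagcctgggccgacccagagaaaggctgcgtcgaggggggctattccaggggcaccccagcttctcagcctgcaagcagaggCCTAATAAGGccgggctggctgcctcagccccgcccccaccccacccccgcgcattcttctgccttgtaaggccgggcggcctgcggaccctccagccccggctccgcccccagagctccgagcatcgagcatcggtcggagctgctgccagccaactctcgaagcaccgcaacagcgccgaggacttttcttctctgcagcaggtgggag
The box began 56 bases before the start of Cnn2 and 161 bases before that of Myl9. Cnn2 had 340 mEF reads at 18 positions against 39 in mES, and Myl9, a regulatory light chain of myosin, 364 at 14 positions against 113. A match of letters describes these sequences and is not evidence of binding in these cells.

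Filaments and surface proteins gave 12 of 18 genes past 4-fold toward mEF and 1 toward mES, with a median log2 ratio of 2.42. The receptors Pdgfrb, through which mesenchymal cells respond to platelet-derived growth factor, and Cd248, a stromal glycoprotein, had 139 and 151 mEF reads and none in mES, at least 73.2-fold and 79.5-fold higher. All of these reads were in library set 1. Cd44, the hyaluronan receptor, had 161 and 13 mEF reads in the 2 sets against 6 and 7 in mES (21.2-fold, 12.1 to 40.5), and Thy1, a surface marker of fibroblasts, had 131 against 11 (log2 4.23). Itgb1, the common beta chain of matrix integrins, had 514 against 94 (8.64-fold, 6.92 to 10.9).

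Cd9 was the exception in this list. It encodes a tetraspanin that is also used as a surface marker of stem cells, and it had 2 mEF reads at 1 position and 199 mES reads at 12, a log2 ratio of -5.98 (-9.03 to -4.10). The tetraspanins Cd63 and Cd81 had log2 ratios of 1.10 and 0.87. Anxa1 and Itga5 were also within 4-fold, at 0.51 and 0.40. The value of Anxa1 joined opposite directions, with 22 mEF reads against 60 in library set 1 (log2 -0.88) and 34 against 2 in run 3 (log2 5.74).

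Transcription factors were seen at few positions. Of 38 genes, 25 had an mEF read, but only 5 had 5 or more mEF positions and 9 could be compared. The 5 past 4-fold toward mEF were Id1 and Id3, inhibitors of helix-loop-helix factors, and the immediate early genes Egr1, Fos and Junb, which serum and cell handling induce. Id3 was the best covered, with 307 mEF reads at 13 positions against 46 in mES (10.6-fold, 7.72 to 14.7), and Fos had 98 at 9 against 28 (log2 2.47). Prrx1, Snai1, Twist2 and Runx2, which direct mesenchymal identity, had 85, 32, 29 and 11 mEF reads at 3 positions or fewer and none in mES, too few positions for the comparison.

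Of 12 galectin and S100 genes, which encode lectins and small calcium-binding proteins, 7 had an mEF read and 5 could be compared, and Lgals1 and S100a6 held most of the 6102 mEF reads of the list. Lgals1, a galectin of mesenchymal cells, had 1440 mEF reads at 47 positions against 263 in mES (8.65-fold, 7.58 to 9.91), S100a6 was at 5.32-fold (4.99 to 5.68) and S100a4 at 4.74-fold (3.13 to 7.37). S100a10 and S100a11 were within 4-fold, at log2 ratios of 0.74 and 1.93. Of the 5 genes, 3 were thus past 4-fold toward mEF.

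Imprinted genes did not move as a group, with 3 of 11 past 4-fold toward mEF, 1 toward mES and a median log2 ratio of 0.30, where 14.4% and 26.2% of all genes were past it in these directions. H19, an untranslated RNA of the growth-regulating Igf2 locus, had 253 and 2 mEF reads against 12 and 12 in mES. It was therefore 16.8-fold higher in mEF over all reads (log2 4.07, 3.46 to 4.74) but lower than mES in run 3. Dlk1 had 43 mEF reads against 4 and Igf2r had 37 against 3, with intervals of 6.18 to 65.2 and 6.17 to 98.8 for the ratio, and in run 3 Igf2r had no mEF read and its 3 mES reads. Phlda2, which restrains placental growth, had no mEF read and 72 mES reads, 15.2-fold lower in mEF with mEF taken at 3 counts. Meg3, an imprinted long noncoding RNA, had 657 mEF reads at 49 positions against 354 (log2 1.55).

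**Figure D3:**
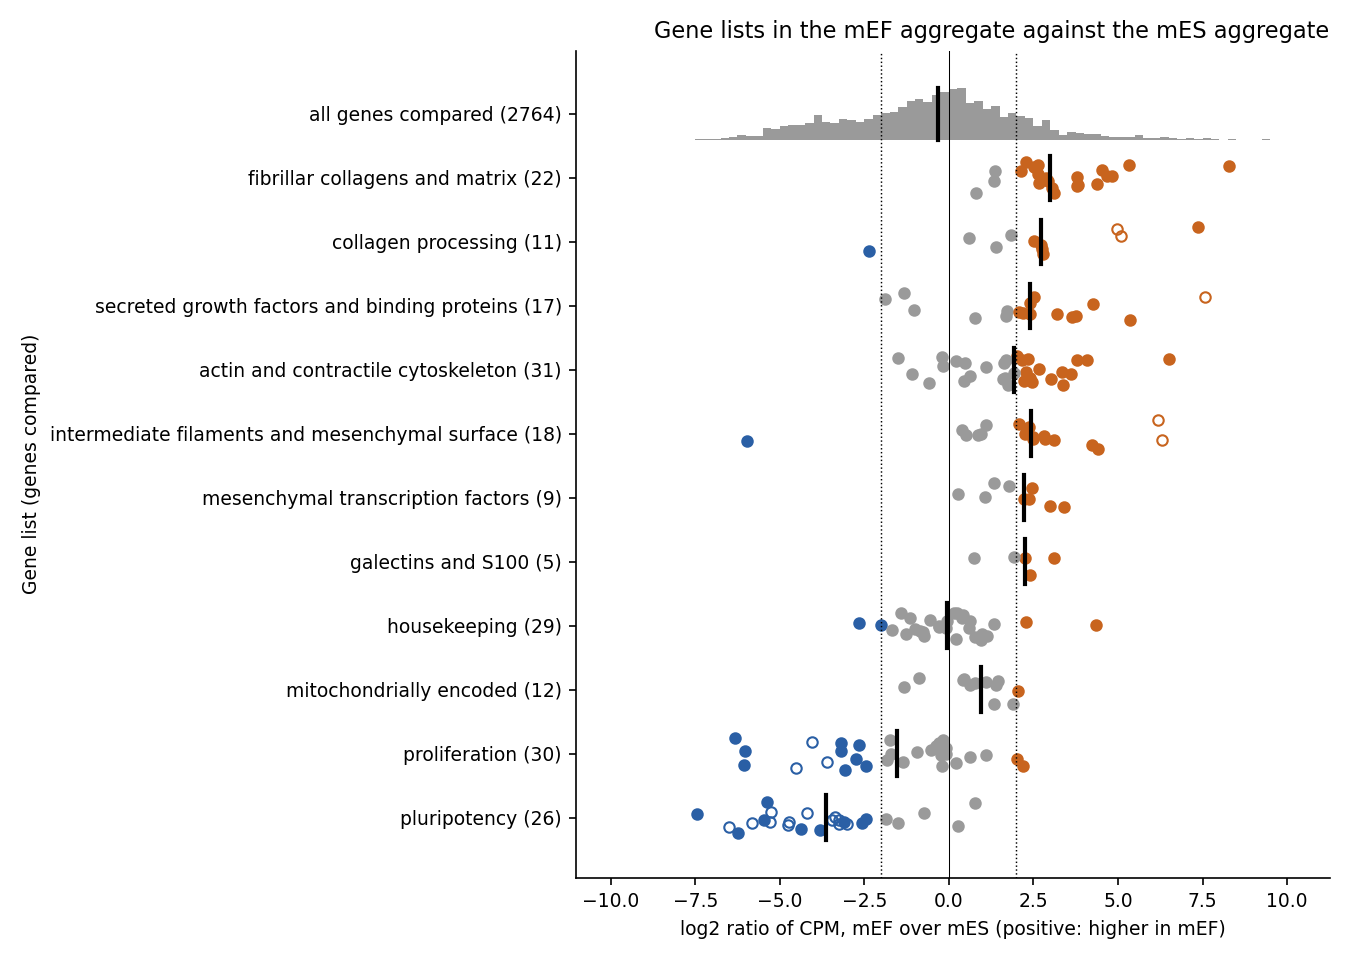
log2 ratio of CPM in mEF over mES for list genes and, as a grey histogram, for all 2764 genes compared. The lists are the 6 fibroblast lists and those of galectins and S100, housekeeping, mitochondrially encoded, proliferation and pluripotency genes. Points are genes, orange past 4-fold toward mEF and blue past it toward mES. Open points mark a lower aggregate without a read, taken at 3 counts, and black bars are medians. Medians lie between 1.91 and 3.00 for the 6 fibroblast lists, at -0.31 for all genes and at -3.63 for the pluripotency list.

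On the other side stood the pluripotency and proliferation genes. Of 26 pluripotency genes compared, 21 were past 4-fold toward mES and none toward mEF, with a median log2 ratio of -3.63, and 26.2% of all genes were past 4-fold in this direction. Klf2, Spp1, Dppa5a and Sall4 were among those within 4-fold. Spp1, osteopontin, which bone and mesenchymal cells also secrete, had 329 mEF reads at 17 positions. The list took 0.189% of the mEF reads and 0.926% of the mES reads, and its median log2 ratio in distinct positions was -1.36. In positions the limit of 3 for an empty aggregate makes the ratios of genes without an mEF read smaller in size.

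Of 30 proliferation genes, 12 were past 4-fold toward mES and 2 toward mEF (median log2 -1.55, and -0.90 in distinct positions). The limit of 3 positions applies here as well. The replication clamp Pcna had no mEF read and 108 mES reads, 22.8-fold lower in mEF with mEF taken at 3 counts. The replicative helicase genes Mcm3, Mcm6 and Mcm7 had 1 mEF read each against 127, 103 and 105. The 2 toward mEF were Ccnd2, a G1 cyclin, with 718 mEF reads at 30 positions against 246 (log2 2.21), and Rrm2, a subunit of ribonucleotide reductase, with 128 against 50 (log2 2.02). Ccnd1 had 211 against 156 (log2 1.10). Cdkn1a, the cell cycle inhibitor p21, had 180 mEF reads at 10 positions against 50 in mES (5.69-fold, 4.14 to 7.95), whereas Trp53, its activator, had 5 against 87 (log2 -3.46).

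Genes used by all cells lay close to the median. Housekeeping genes had a median log2 ratio of -0.06 over 29 genes, with 2 past 4-fold each way, and none of the 77 ribosomal protein genes was past 4-fold, with a median of 0.05. The 2 housekeeping genes toward mEF were B2m, the light chain of class I histocompatibility molecules, with 104 mEF reads against 8 (log2 4.36), and Hspa5, the main chaperone of the endoplasmic reticulum, with 346 against 113 (log2 2.27). Toward mES were Ncl, a nucleolar protein, at -2.65, and Gapdh, 4.01-fold lower in mEF, of whose mEF reads 26.0% had the highest score. Gapdh was just past the limit, with a log2 ratio of -2.15 in library set 1 and 0.13 in run 3. Mitochondrially encoded genes had a median of 0.94 with 1 of 12, mt-Atp6, past 4-fold, and none of its mEF reads had the highest score.

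Outside the lists, the genes with the largest ratios toward mEF and 10 or more positions included other matrix genes. Fbln5, which organises elastic fibres, had 386 mEF reads at 10 positions, all in library set 1, and 1 mES read, a ratio of 610.0-fold with an interval of 109 to 24157. Aebp1, a secreted protein that binds collagen, had 279 at 14 positions against 17 (25.9-fold, 15.9 to 45.2). Selenow, a small selenoprotein of redox metabolism, had 119 at 11 positions against 4 (47.0-fold, 17.9 to 175). The other 7 of the 10 were Col12a1, Ptn, Loxl3, Mgp, Col1a1, Col1a2 and Cd44.

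At the other end, Trim71, a stem cell regulator of mRNA, had 1 mEF read against 276 in mES, Stip1, a cochaperone, 1 against 216, and Glud1, glutamate dehydrogenase, 1 against 184. Their log2 ratios were -7.45, -7.09 and -6.86, each resting on a single mEF read. Vmn2r113 and Mgl2 were the other 2, with 0 and 4 mEF reads against 617 and 572, and both rest on mES reads with several placements, since 80 of the 617 reads of Vmn2r113 and none of the reads of Mgl2 had the highest score.

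The library sets were set side by side as a check across sequencing runs within the same aggregates. Within library set 1, 309 genes were past 4-fold toward mEF (13.6% of 2266) and 578 toward mES (25.5%). Of the 309 genes toward mEF, 61 had 3 or more positions in run 3, where 56 were higher in mEF and 4 in mES, 41 were past 4-fold toward mEF and none was past it toward mES. Among all 640 genes with as many positions, 328 (51.3%) were higher in mEF in run 3. The share depended on the minimum, which a gene could reach through mEF positions alone. With 2 or more positions in run 3, 75 of 107 genes called toward mEF were higher in mEF there (70.1%) and 12 in mES. Among all genes the share was then 40.7%. With 5 or more positions, 27 of 28 were higher in mEF, against 57.5% among all genes. Of the genes called toward mES in set 1, 126 had as many positions in run 3, where 34 were higher in mEF and 68 in mES, and 13 were past 4-fold toward mEF and 12 toward mES. In run 3 by itself, past 4-fold were 21.3% of 376 genes toward mEF and 8.51% toward mES. The limit of 3 counts there is 125 CPM in mEF and 39.9 CPM in mES. A gene without an mEF read therefore needs more reads for a call than a gene without an mES read. Eef1d, with 7 mEF reads and no mES read in run 3, had a log2 ratio of 2.87. Ppia, with 31 mES reads and no mEF read, had -1.72. Of the fibroblast lists, 54 genes had 3 or more positions in run 3, and 49 of them were higher in mEF and 5 in mES. The largest ratios in run 3 among the genes labelled in the plot of both sets were at Col1a1, with 135 mEF reads and no mES read, Bgn, and Fstl1, a follistatin-like glycoprotein, with 21 against 1.

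**Figure D4:**
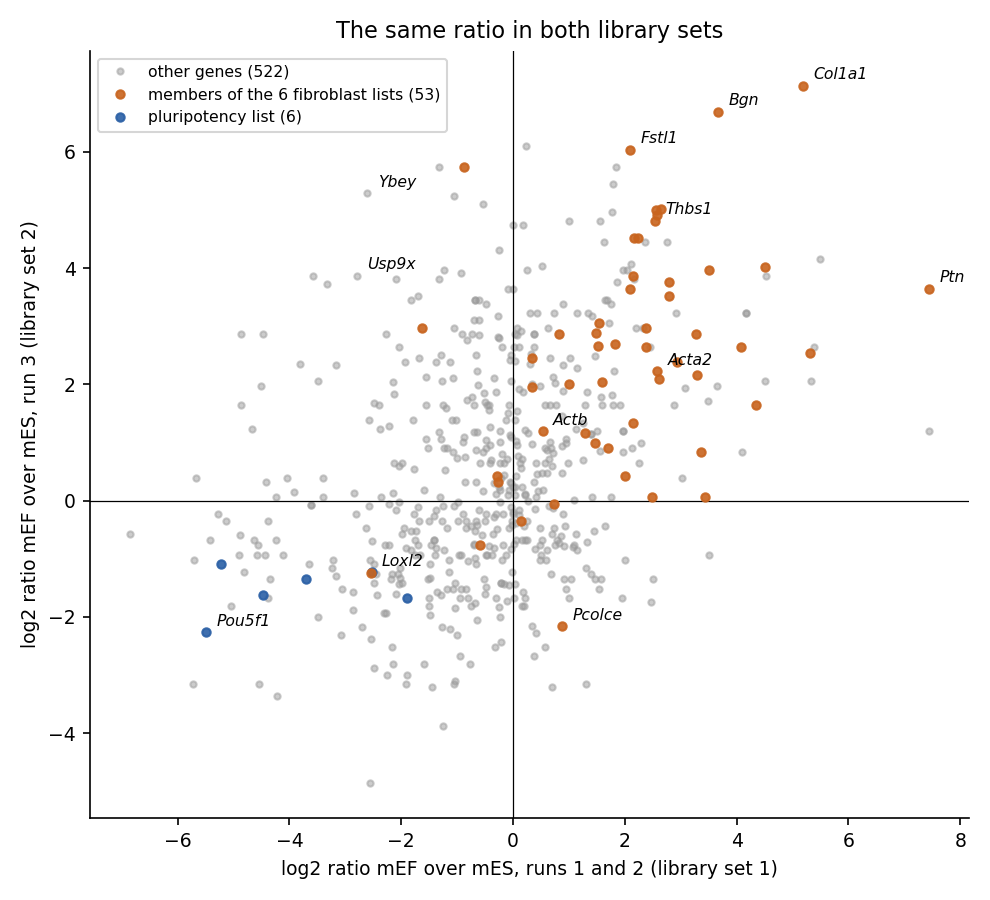
log2 ratio of mEF to mES in library set 1 (horizontal) and library set 2 (vertical) for the 581 genes with a ratio in both, with the 53 genes of the fibroblast lists in orange and 6 pluripotency genes in blue. Of the orange points, 44 lie above 0 in both sets, and all 6 blue points lie below 0 in both.

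Reads of the mEF aggregate were concentrated near the 3′ ends of transcripts. Of 323036 mEF reads on exons of genes with an annotated end, 75.5% (exact binomial 95% interval 75.3 to 75.6) lay within 500 nt of it along the spliced transcript, at a median of 224 nt. In mES the share was 69.1% and the median 247 nt. Library set 1 had 77.5% in mEF and 74.3% in mES, and run 3 had 37.3% and 22.0%, with medians of 1449 and 1494 nt, while Gm42418 took the largest share of run 3. Its part in the lower share of run 3 was not tested.

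**Figure D5:**
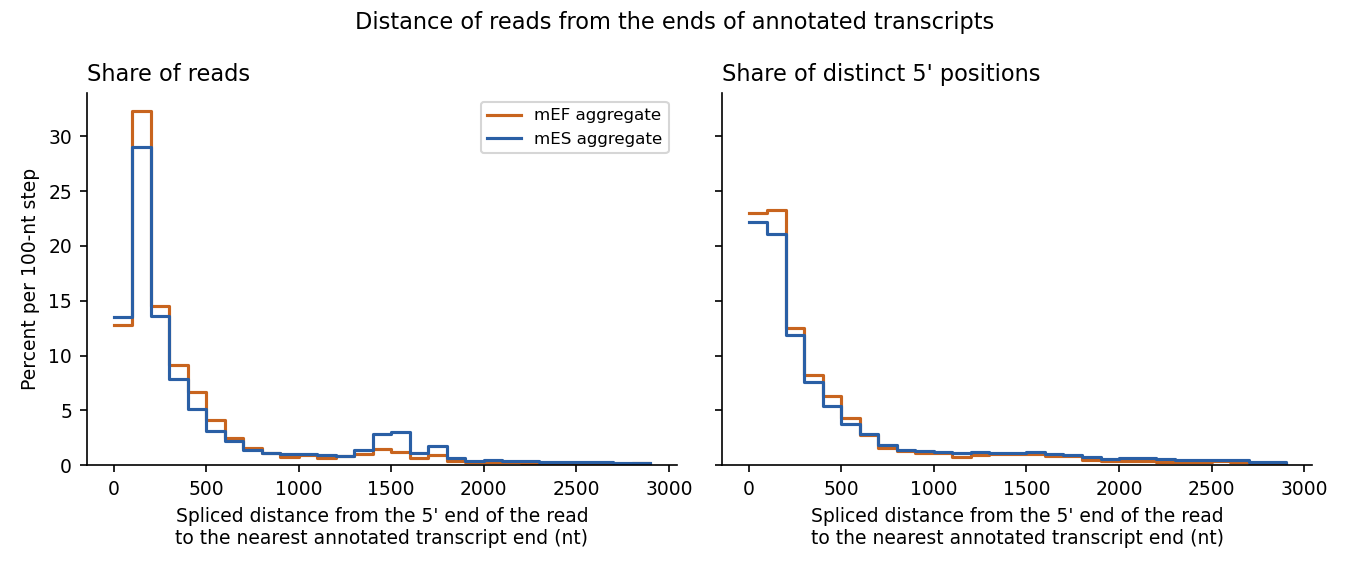
Spliced distance from the 5′ end of a read to the nearest annotated transcript end in steps of 100 nt, as a share of reads (left) and of distinct positions (right), for mEF (orange) and mES (blue). Both curves peak in the steps under 200 nt, and the reads show a small second rise near 1500 nt, higher in mES.

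By class, 87.9% of the mEF reads (87.8 to 88.0) began on exons, 4.61% in introns, 0.699% just past a 3′ end, 2.26% outside genes and 3.50% on the mitochondrial chromosome, and 0.993% could not be placed. In mES the exonic share was 80.2% and the intronic share 10.5%. Since genes were placed by how 5′ ends fell on sense exons, the exonic shares are partly set by that step. Within run 3 of mEF, exons held 68.0% and introns 13.6%. Counted in positions, exons held 76.0% of the mEF positions and introns 8.04%, so positions outside exons carried fewer copies.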

How the data were processed

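The authors aligned the reads with TopHat to mm9 (per the labels, versions not given in the sources used here), assigned barcodes to cell types, pooled the libraries per cell type and deposited each pool as alignment records with position, strand, read name and a mapping score of 4 values, of which 255 marks a single placement. Barcodes were not in the records, so the deposited barcode list was not used, cells were not counted and barcodes shared by more than 1 cell were not removed here. From the deposited records, 2529 identical second mEF records were dropped (24108 in mES), and reads and distinct 5′ positions were counted. The 6 libraries form 1 labelled group.

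Only an annotation of another build (GENCODE M21, GRCm38) was at hand. Genes were therefore recognised without coordinates: the gap of each spliced alignment of at least 20 nt was matched to an annotated intron of the same length, chromosome and strand, and 5′ ends between such anchors were set against the exons in between. Of 3332 different spliced alignments over both aggregates, 3280 matched. Placement reached 97.1% of the nuclear mEF positions, with 80.5% on sense exons and 5.64% on antisense exons, and 5.41% on sense exons when all positions were moved by 10007 nt. The placement was chosen so that 5′ ends fell on sense exons. These shares are therefore partly set by it and are not an independent check of it. With 238 genes left out of the anchors, 98.8% of their 723 spliced alignments were placed back on their own intron.

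Ratios are of CPM, with exact Poisson or binomial 95% intervals, for genes with at least 5 positions over both aggregates, 3 counts over the aggregate in place of 0, and past 4-fold as the call. The step was tested on simulated data for mEF against mES: of 2764 genes, 200 changed by 16-fold were all called in the right direction (100%), and 2 of 2564 unchanged genes were called. The simulated reads were independent Poisson counts without the PCR copies of the real data. These rates therefore check the calculation and are not error rates of the real calls. The genes named are the 9 markers, members of 22 lists (486 of 490 entries had a gene model), the 15 genes with the most mEF positions, the 10 with the largest ratio toward mEF and 5 toward mES (10 or more positions), and the 5 with the most run 3 reads. Genes below these limits that are named were chosen after their values were seen. The members and lists were chosen with earlier results of these data known. Sequences are from GENCODE and RefSeq tables. The tools were scipy 1.17.1, pandas 2.3.3, numpy 2.4.6 and matplotlib 3.10.9 under Python 3.11.15.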

Additional observations from a re-analysis of the deposited data

Results flagged for a closer look

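For 6 genes with at least 5 positions in each library set, the ratio of mEF to mES was past 4-fold in opposite directions in the 2 sets, lower in mEF in runs 1 and 2 and higher in run 3. The log2 ratios in set 1 and set 2 were -3.16 and 2.33 for Alyref, -2.27 and 2.87 for Fxr1, -2.15 and 2.04 for Luc7l2, -3.32 and 3.72 for Sptbn1, -2.79 and 3.87 for Usp9x and -2.61 and 5.29 for Ybey. The counts of run 3 were small. Alyref had 16 mEF and 10 mES reads there, Fxr1 14 and 6, Luc7l2 17 and 13, Sptbn1 21 and 5, Usp9x 28 and 6, and Ybey 25 and 2. In set 1 the same genes had between 5 and 50 mEF reads and between 74 and 383 mES reads. None of the mEF reads of Ybey had the highest mapping score. With 3 or more positions in run 3 in place of 5, 13 genes were past 4-fold toward mES in set 1 and toward mEF in run 3, and 0 the other way. The limit of 3 counts in run 3 is 125 CPM in mEF and 39.9 CPM in mES. It makes a call toward mES harder there for a gene without an mEF read, so these 2 counts are not on equal terms. The difference between the sets was not tested, since a set holds 1 pool per cell type.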

How the results depend on the processing

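The summed level of the 9 markers, 30259 CPM, was 18414 CPM in distinct positions, 33044 with the highest mapping score only, 25558 with second records kept, 31487 in runs 1 and 2 and 11641 in run 3, and 32170 scaled without the mitochondrial chromosome and the dense region of chromosome 17. Genes detected, 6015, were 1813 in run 3 and 813 with 5 or more positions. Genes past 4-fold, 399 toward mEF and 724 toward mES, were 279 and 92 in positions, 80 and 32 in run 3, 126 and 206 with at least 10 positions, 1269 and 1958 with at least 2, and 811 and 943 with at least 50 reads in place of a minimum on positions. They were 718 and 1074 past 2-fold and 181 and 495 past 8-fold. The share of calls toward mEF, 35.5%, was 75.2% in positions, 71.4% in run 3 and 46.2% with at least 50 reads. The limit of 3 counts for an empty aggregate is higher in mEF than in mES, most of all in run 3, with 125 and 39.9 CPM. Members of the fibroblast lists past the fold toward mEF, 69, were 25 in run 3, where 36 could be compared, and 33 past 8-fold. Apart from fewer reads or genes under a limit, the cause was not tested.

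Reads near 3′ ends, 75.5%, were 45.1% within 200 nt, 85.5% within 1000 nt, 73.4% in positions, 75.3% with the highest score, 77.5% in runs 1 and 2 and 37.3% in run 3. In positions, with the highest score, in runs 1 and 2 and in run 3, the exonic share was 76.0%, 89.7%, 89.3% and 68.0%, the intronic share 8.04%, 4.69%, 4.02% and 13.6%, the share outside genes 7.89%, 2.37%, 1.95% and 6.89%, and the mitochondrial share 2.82%, 1.57%, 3.31% and 6.28%. Gapdh turned from 4.01-fold lower in mEF to a log2 ratio of 0.13 in run 3. Of the other single-gene values, 2549 stayed within a fixed log2 distance of their main value, whatever their counting interval, and 201 moved further. By the same limit, 249 of the list medians stayed and 27 moved. Median-of-ratios scaling took the median of all genes from -0.31 to -0.54 and gave 344 genes toward mEF and 790 toward mES. The alternatives chosen after seeing the data were genes with only multiply placed reads left out, with 356 and 650 calls, and the shares near 3′ ends by run. No paired analysis was possible because all libraries carry 1 group label and were pooled per cell type. Leaving out a library was not possible for the same reason. Depth limits run 3 most, at 125 CPM in mEF and 39.9 CPM in mES for a count of 0.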

Other observations

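In the plot of reads against positions, 2 genes stood apart from the band, and they were chosen after their values were seen. Pex13, with 1937 mEF reads at 3 positions, and 2810433D01Rik, with 1949 at 5, each had 1888 mEF reads at a single position of chromosome 11 (23548416 and 102481216, minus strand), and none of the mEF reads of either had the highest mapping score. Whether these were the same reads was not tested.

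Among genes with a single mEF position, 9 had 100 or more reads. Nop16, Smim15, Chuk, Ripk4 and B3galnt2 had 137, 127, 121, 108 and 102, all with the highest mapping score. The others were Gm9701 and Gm12517 with 130.0 each and Gm13777 and Gm13137 with 122 each, and none of their reads had that score.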
